A study of Homo sapiens with 4 samples.

Results

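The short arm of human chromosome 5 (5p) was read out here by 245 array probe sets, of 54613 probe sets outside the array's own controls. A probe set was taken as a member when the highest-scoring entry of its deposited alignments lay on chromosome 5 with a start below 46 Mb and its mean signal over the 4 arrays was 55 or more. That signal limit was met by 27985 probe sets in all, and by 245 of the 503 whose best alignment was on the arm. The cells belonged to SAS, an established line from a squamous cell carcinoma of the human mouth. In the knockdown group, HAI-1KD, the line had been infected with a retrovirus whose short hairpin RNA is directed at SPINT1, the gene of the protease inhibitor HAI-1. In the control group, HAI-1con, the same kind of virus carried a scrambled hairpin. Each group holds 2 arrays, and the labels do not say whether the arrays come from separate infections or cultures, or whether infected cells were kept as a pool or as a clone. The arm was selected on the measured values themselves, the log2 differences between these same arrays along position, so the differences between the groups are given as a description, and counts of called members are set against the share called among all probe sets or genes. Both groups were grown in medium with 10% fetal bovine serum and carried the pSINsi-hU6 vector, which drives the hairpin from the human U6 promoter.

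The short arm of chromosome 5 holds genes of very different kinds. They include the telomerase gene, the F-box gene SKP2, the microRNA processing gene DROSHA, subunits of the respiratory chain and receptors of the interleukin 6 family. Gain of the arm is a well-known change of squamous carcinomas of the head and neck and of the cervix. An array measures messenger RNA and not the number of copies of a chromosome. The long arm (5q) serves as the comparison, since it sits on the same chromosome.

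The groups differ by the hairpin insert, and both sequences are shown because they define the comparison. Each has 21 bases and the same base composition, and they carry the same base at 9 positions.
HAI-1KD target: gggcaggcatagacttgaagg
HAI-1con sequence: gggacggagatttcacgagga

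The values are MAS5 signals, probe set intensities on a linear scale, and the number of arrays limits their precision. The main SPINT1 probe set read 135 and 282 in the knockdown and 1451 and 1445 in the control cells, a log2 difference of -2.79 (adjusted p = 6.4e-05 in limma's moderated test over all probe sets). A second SPINT1 probe set, called present on no array, overlapped between groups at -0.11. Of the 12 keratinocyte and epithelial markers, 11 were called present on all 4 arrays. Of the leukocyte, endothelial and fibroblast markers on the array, 5 of 6, 2 of 5 and 4 of 7 were called present on no array, while CD14, CDH5 and FAP, 1 of each list, were present on all 4. The summed signal of the epithelial list was 163721 and 191425 in knockdown and 171149.7 and 169983 in control cells, and the leukocyte sums lay between 738 and 955. The endothelial sums were 979.6 and 1345 against 655 and 636, and the fibroblast sums 2205 and 2091 against 3914 and 3499; their part in the results was not tested. Present calls covered between 45.6% and 48.1% of all probe sets per array.

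Signals of the short arm were lower in knockdown cells along nearly its whole measured length. Over the 245 members the median difference of log2(signal + 16), knockdown minus control, was -0.54, so the median member stood at 68.6% of the control level on that scale. Their lower and upper quartiles were -0.81 and -0.18. Over all probe sets with a mean signal of 55 or more the median was 0.038, with quartiles of -0.23 and 0.29. In all, 208 of the 245 members (84.9%) had a difference below 0, against 45.9% of all probe sets. In these bulk samples, fewer cells that express a gene and less RNA per cell cannot be told apart.

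The shift was present on both knockdown arrays. With each probe set's mean over the 4 arrays subtracted, the median member stood at -0.23 on knockdown array 1, -0.30 on knockdown array 2, 0.27 on control array 1 and 0.27 on control array 2. Both knockdown arrays were thus low and both control arrays high, with no overlap. The arm was selected on the differences between these same arrays, so nothing is read from this separation. Set against one another, each knockdown array with each control array, the 4 pairs gave medians between -0.59 and -0.48. Replicates of a group differed less: the median member differed by 0.059 between knockdown arrays 1 and 2 and by 0.0049 between the control arrays. The plot of median deviations by array sets these beside the long arm.

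**Figure D1:**
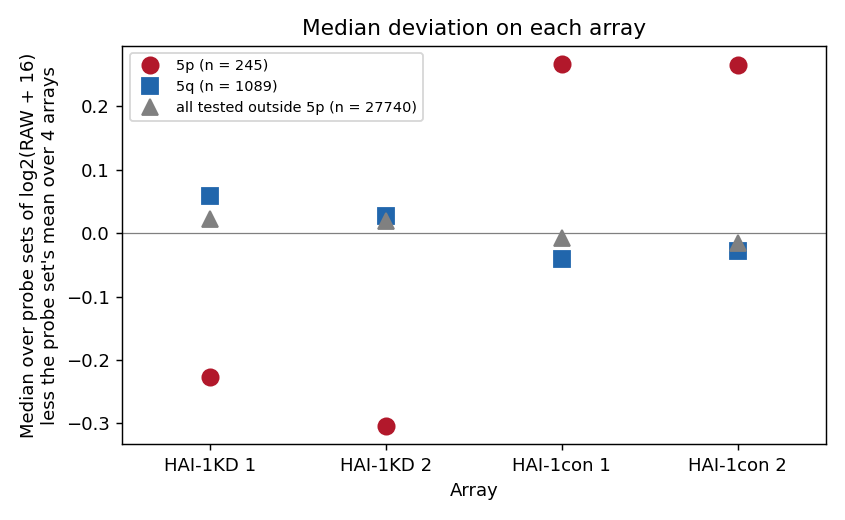
Median over probe sets of log2(signal + 16) less the probe set's own mean over the 4 arrays (vertical axis) on each array (horizontal axis). Circles are the short arm, squares the long arm, and triangles all tested probe sets outside the short arm, the long arm included. The short arm stands at -0.23 and -0.30 on the knockdown arrays and at 0.27 and 0.27 on the control arrays, while the long arm stays between -0.041 and 0.059.

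Counted probe set by probe set, both knockdown signals lay below both control signals for 179 members (73.1%), against 26.2% of all probe sets tested. Both lay above for 22 members (8.98%), against 31.2%, and for the other 44 the groups overlapped. By limma's moderated test, fitted on all 27985 probe sets at an adjusted p below 0.05, 112 members were called lower (45.7%, against 8.06% of all) and 5 higher (2.04%, against 7.09%). The count of lower calls was 74 without control array 1, 69 without control array 2 and 34 without limma's variance trend. In those fits 7.59%, 8.46% and 4.55% of all probe sets were called in either direction, against 15.2% in the fit of all 4 arrays with the trend. The members were chosen for this contrast, so nothing is read from these shares.

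On the long arm the same measures were near those of all probe sets. Its 1089 probe sets had a median difference of 0.092, 223 of them (20.5%) lay lower on both knockdown arrays and 390 (35.8%) higher. The short-arm median less the long-arm median was -0.63, and over the 4 array pairs it lay between -0.66 and -0.56. With probe sets under the signal limit included, the short-arm less the long-arm median was -0.34. Being a comparison of arms within arrays, it leaves out a factor common to all probe sets of an array. Differences of at least 2-fold downward were found for 39 short-arm probe sets (15.9%) and for 15 long-arm probe sets (1.38%). Over all probe sets tested that share was 3.01%. Upward, they were found for 6 of 245 short-arm, 30 of 1089 long-arm and 751 of all 27985 probe sets tested.

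**Figure D2:**
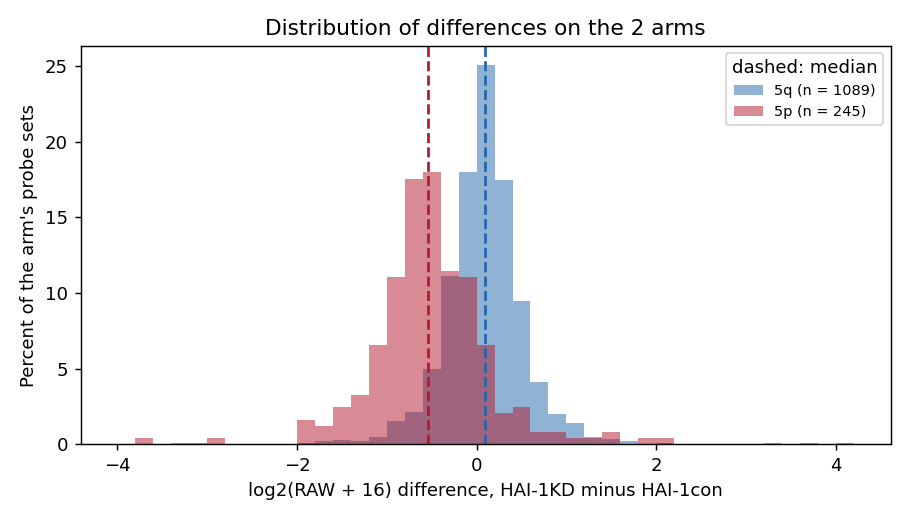
Distribution of the log2(signal + 16) difference, knockdown minus control (horizontal axis, bins of 0.2), as a percent of the probe sets of each arm (vertical axis), with dashed lines at the medians. The short-arm distribution, with its median at -0.54, lies to the left of that of the long arm, with its median at 0.092.

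The difference was found along the arm from its telomeric to its centromeric end. In 5 Mb windows counted from the first base of the chromosome, the 5 short-arm windows with 20 or more members had medians between -0.61 and -0.46. In the same windows the medians of replicate 1 minus replicate 2 within a group lay between -0.10 and 0.19. The window from 0 to 5 Mb, at the telomeric end, stood at -0.46 (44 members) and that from 10 to 15 Mb at -0.61 (38). The windows from 30 to 35, 35 to 40 and 40 to 45 Mb, toward the centromere, stood at -0.48, -0.51 and -0.52. The thinner windows, from 5 to 10 Mb (16 members) and from 15 to 20 Mb (10), stood at -0.59 and -0.88.

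The window whose median was nearest to 0 was the gene-poor stretch from 20 to 25 Mb, with 3 members and a median of -0.01. One of them is named for AKTIP, a gene of another chromosome, and has a second alignment, one had 8 alignments and no gene name, and one is the non-coding LINC02239. No member lay from 25 to 30 Mb. The first member in order of position was a PLEKHG4B probe set at 209204, at -0.83, and the last lay at 44863977, at -0.20.

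**Figure D3:**
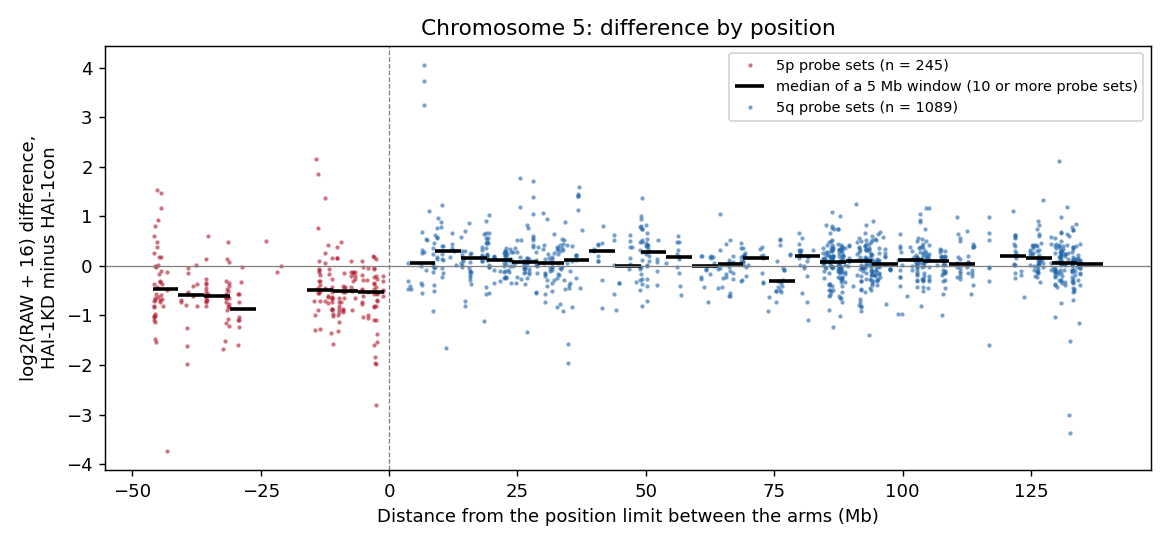
Difference of log2(signal + 16), knockdown minus control (vertical axis), of each tested chromosome 5 probe set against its distance in Mb from the position limit between the arms (horizontal axis, short arm to the left), with black bars at the median of each 5 Mb window of 10 or more probe sets. The short-arm bars lie between -0.88 and -0.46, and the long-arm bars of windows with 20 or more probe sets lie between -0.30 and 0.31.

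Just beyond the position limit the nearest tested probe sets of the long arm were mostly low: of the 5 between the limit and the gene PELO, 4 had differences below 0. Of these 5, EMB and its unnamed neighbours, 3 in all, have 2 alignments, and EMB was called. EMB, which encodes the cell adhesion protein embigin, lies at 49727787 and read 4499 and 4243 in knockdown and 6509 and 5582 in control cells (-0.46 on the log2 scale). PARP8, of the ADP-ribosyltransferase family, at 50125832, stood at -0.41. PELO, which encodes a ribosome rescue factor, at 52131725, stood at -0.0073 on its brighter probe set. Of 19 long-arm windows with 20 or more probe sets, 1 had a median below 0, that from 120 to 125 Mb at -0.30 (20 probe sets).

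Among the 41 chromosome arms with 50 or more tested probe sets, the short arm of chromosome 5 had the second lowest median difference. Only 4p lay lower, at -0.71 (344 probe sets, 78.8% with both knockdown signals lowest). Next came 7q at -0.30 (57.4%) and 9p at -0.27 (54.5%). The order is a description, and the differences between arms were not tested.

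**Figure D4:**
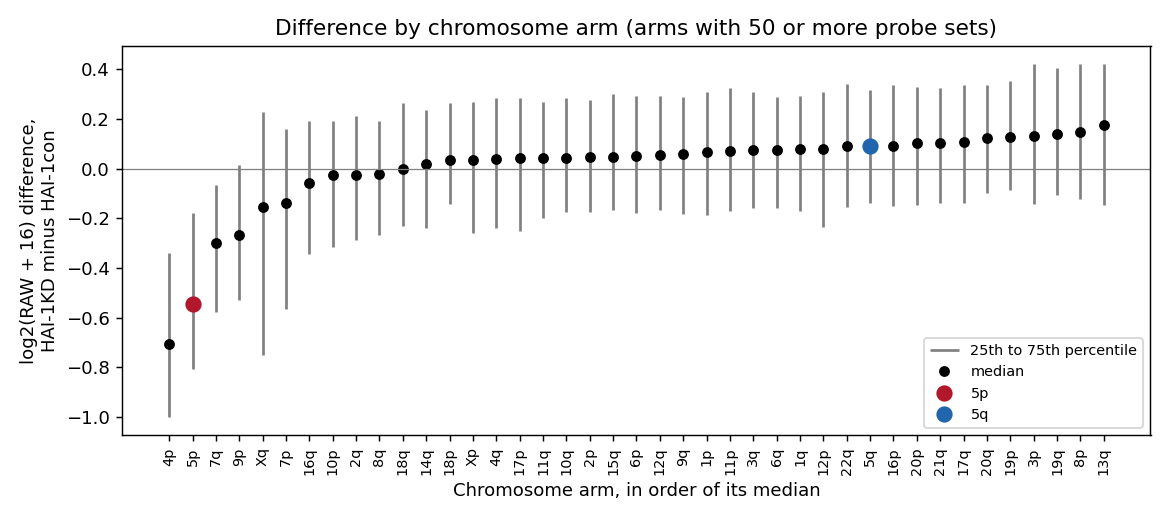
Median (points) and 25th to 75th percentile (lines) of the log2(signal + 16) difference, knockdown minus control (vertical axis), for each chromosome arm with 50 or more tested probe sets (horizontal axis, in order of the median). The short arm of chromosome 5 is second from the left at -0.54 and the long arm stands among the other arms at 0.092.

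The median lay farther below 0 where signals were strong. Of the 89 members with a mean signal of 1000 or more, 84 (94.4%) had a difference below 0 and 80 (89.9%) had both knockdown signals lowest. Over all probe sets of that signal the shares were 45.9% and 30.5%. The median of the 89 was -0.59. For the 73 members from 200 to 1000 the median was -0.56, and for the 83 from 55 to 200 it was -0.42. Among the 258 short-arm probe sets under the limit of 55, the median was -0.016. With these included the median of the arm was -0.26. The added amount of 16 pulls the differences of dim probe sets toward 0.

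Members that align in several places, and so can pick up RNA from elsewhere, lay nearer to 0. The 226 members with a single alignment had a median of -0.56, and the 19 with several had one of -0.27. A gene table of assembly GRCh38.p14 places the named gene of 195 members on chromosome 5, and their median was -0.56. It places that of 3 members elsewhere. These were FTH1, the ferritin heavy chain gene, at -0.017, AKTIP at -0.12 and the mucin gene MUC20 at 0.27. Of the remaining members 39 had no gene name, 5 stand for several genes and 3 carry a symbol that the table does not hold.

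Read by genes, with the brightest member probe set for each, 78 of 104 genes had both knockdown signals lowest, against 29.3% of all genes tested, and 10 had both highest, against 32%. The limma test called 62 of them lower and 3 higher, against 10.3% and 8.57% of all genes. The gene median was -0.56 on the short arm and 0.025 over all genes. Lists by role covered 84 of the genes. They are described in turn, with the limma calls as counts and the signals of the brightest members; each list's counts of lower and higher calls stand beside those shares of all genes, 10.3% and 8.57%, and since the arm was selected on this contrast nothing is read from them.

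At the telomeric end 11 of 19 listed genes with a member were called lower (against 10.3% of all genes) and none higher (against 8.57%), with a median of -0.50. TERT, the telomerase gene, was among those not called. PDCD6, which encodes a calcium-binding adaptor, read 6723 and 7374 in knockdown and 14040.5 and 14502 in control cells, a log2 difference of -1.02 with a standard error (SE) of 0.11 over 2 arrays a group. CLPTM1L, a membrane protein gene beside the telomerase gene, read 6826 and 7643 against 11962 and 12029.8 (-0.73). For both genes the knockdown arrays were well below the control arrays, and a second PDCD6 probe set with several alignments stood at -0.36. IRX2, an Iroquois homeobox transcription factor gene, stood at -0.50 on its bright probe set, and its dim one, whose groups overlapped, at -0.13. SLC12A7, a potassium-chloride cotransporter gene, was not called, at 0.011. The SLC12A7 control arrays read 592 and 1113 and its knockdown arrays 902 and 744, so that the groups overlapped, and without 1 array or another its difference took either sign. Both knockdown signals were highest for 2 of the 19 genes, against 32% of all genes. Neither was called: ZDHHC11 stood at 0.48 and the dim NKD2, a gene of the naked cuticle family, at 0.93.

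All 19 genes of RNA processing and translation had differences below 0, and 15 were called lower, against 10.3% of all genes (median -0.56). DROSHA, the nuclease that cuts primary microRNA transcripts, read 3409 and 3257 in knockdown and 5525 and 5406 in control cells (-0.71, SE 0.10), so its groups lay far apart. MRPL36, of the large mitochondrial ribosome subunit, read 8413 and 9647 against 14238 and 14374 (-0.67). CCT5, a chaperonin subunit gene, and TARS1, the threonyl-tRNA synthetase gene, stood at -0.35 and -0.44 on their brightest probe sets, smaller differences from strong signals. The other CCT5 probe set stood at -0.60, and the other of TARS1, whose groups overlapped, at 0.050. SUB1, which encodes a transcriptional coactivator, spread widely over its 5 probe sets, from -0.19 on the brightest to -1.27 on the dimmest. Both knockdown signals were lowest on all 5. The groups overlapped on the brightest probe sets of RPL37, a gene of the large ribosome subunit, and ZFR, an RNA-binding zinc finger gene, which stood at -0.022 and -0.076. The other probe sets of RPL37 stood at -0.29 and -0.62, and 3 of the 4 of ZFR overlapped.

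Genes of the cell cycle, ubiquitin transfer, checkpoint and cohesin list were mostly low. On their brightest probe sets all 12 with a member had both knockdown signals lowest (against 29.3% of all genes) and 11 were called lower (against 10.3%), with a median of -0.74. SKP2, the F-box protein that marks the cell cycle inhibitor p27 for destruction, read 2416 and 3046 in knockdown and 4674 and 4285 in control cells (-0.72), and its 3 probe sets lay between -0.93 and -0.72. NIPBL, which encodes the loader of cohesin onto chromatin, read 2697 and 2545 against 4936 and 5073 (-0.93), with all 5 of its probe sets low. TRIP13, a mitotic checkpoint ATPase gene, and MARCHF6, a ubiquitin ligase gene of the endoplasmic reticulum, stood at -0.62 and -0.51. Their knockdown and control arrays did not overlap. OTULINL, related to a deubiquitinase, was not called, at -0.82, and its second probe set, whose groups overlapped, stood at 0.48. The other 3 listed genes, FBXL7, MARCHF11 and UBE2QL1, lay under the signal limit.

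Receptors divided. Of 6 genes in the list of cytokine, hormone and prostanoid receptors and ligands, 2 were called lower and none higher, against 10.3% and 8.57% of all genes (median -0.50). OSMR, a subunit of the oncostatin M receptor, read 748 and 798 in knockdown and 1393 and 1510.1 in control cells (-0.89). PRLR, the prolactin receptor gene, read 133 and 149 against 476 and 421 (-1.57). For both genes called, the groups lay well apart. LIFR, the leukaemia inhibitory factor receptor gene a short way from OSMR, stood at -0.12, with knockdown signals of 923 and 868 close under the control signals of 927 and 1016. Its 4 probe sets ran from -0.42 to 0.095, and 2 of them had both knockdown signals lowest. IL7R, the interleukin 7 receptor gene, was among the brightest members, at 12453 and 11913 in knockdown and 11137 and 10712 in control cells, a difference of 0.16. Both of its probe sets were slightly higher on both knockdown arrays, and neither was called. PTGER4, the prostaglandin receptor EP4 gene, overlapped between groups (0.10).

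In the signalling and trafficking list 7 of 12 genes were called lower and 1 higher, against 10.3% and 8.57% of all genes, with a median of -0.57. GOLPH3, which encodes a Golgi phosphoinositide-binding protein, read 6805 and 6482 in knockdown and 10218 and 9349 in control cells (-0.56). TRIO, a guanine nucleotide exchange factor gene, had both knockdown signals lowest on all 7 member probe sets, at differences from -0.89 to -0.30. RETREG1, a receptor gene for autophagy of the endoplasmic reticulum, was among the lowest, at 169 and 203 against 670.2 and 519 (-1.59). RICTOR, a subunit of the mTORC2 kinase complex, stood at -0.31 and was not called, and MTMR12, of the myotubularin family, was called at -0.45.

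The cytoskeleton, adhesion and matrix list held few expressed genes: 6 had a member and 10, the listed cadherins among them, lay under the signal limit. Of the former 3 were called lower and 1 higher, against 10.3% and 8.57% of all genes (median -0.70). MYO10, the myosin gene of filopodia, read 1563 and 1944 in knockdown and 3743 and 3697 in control cells (-1.09), and all 5 of its probe sets were low. RAI14, which encodes an actin-binding ankyrin repeat protein, read 1142 and 1182 against 3044 and 2939.8 (-1.35). DNAH5, an axonemal dynein gene, stood at -1.51, and 129 and 55.5 on the knockdown arrays show how far these dim signals spread, and without knockdown array 2 the difference was -1.003. BASP1, a membrane-associated protein gene, was not called at -0.32.

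Mitochondrial and metabolic genes included several of the members farthest below 0. Of 12 genes 8 were called lower and none higher, against 10.3% and 8.57% of all genes (median -0.61). SRD5A1, the steroid 5-alpha-reductase gene, read 887 and 735 in knockdown and 3511 and 2951 in control cells (-1.97, SE 0.13), and its other probe sets stood at -1.62 and -1.24. HMGCS1, the cytosolic synthase gene of cholesterol synthesis, read 580.1 and 563 against 2389.8 and 1837 (-1.85, SE 0.14). NNT, the mitochondrial enzyme that makes NADPH from the proton gradient, read 557 and 589.9 against 1811 and 1561 (-1.53). On these probe sets the genes lay well below the median of the arm, and the highest knockdown signal was far under the lowest control signal. The 3 probe sets of NNT ranged from -1.53 to -0.52, so the lesser difference was near that median. SDHA, the flavoprotein subunit gene of succinate dehydrogenase, read 3854 and 4251 against 8066 and 8476 (-1.03); its probe set has 4 alignments, so near-identical copies may share its signal. NDUFS6, of respiratory complex I, and MTRR, the methionine synthase reductase gene, stood at -0.37 and -0.41, and OXCT1, a ketone body enzyme gene, was not called at -0.29. Both knockdown signals were highest for 2 of the 12 genes, against 32% of all genes. Neither was called: CMBL, a hydrolase gene, stood at 0.14 and the dim AMACR, a racemase gene of fatty acid oxidation, at 0.42.

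Of the transporters, 2 of 5 were called lower and none higher, against 10.3% and 8.57% of all genes (median -0.30). SLC1A3, a glutamate transporter gene, read 3249 and 3337 in knockdown and 5779 and 5104 in control cells (-0.72), while its dim second probe set stood at 0.49, opposite in sign. ANKH, a gene of pyrophosphate export, was called at -0.64, with all 5 probe sets low. SLC6A3, the dopamine transporter gene, overlapped between groups (-0.30). In the complement and secreted list C1QTNF3, an adiponectin-like secreted protein gene whose transcripts can run together with those of its neighbour AMACR, had a member, at -0.63 and not called, and the other 4 genes lay under the limit.

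**Figure D5:**
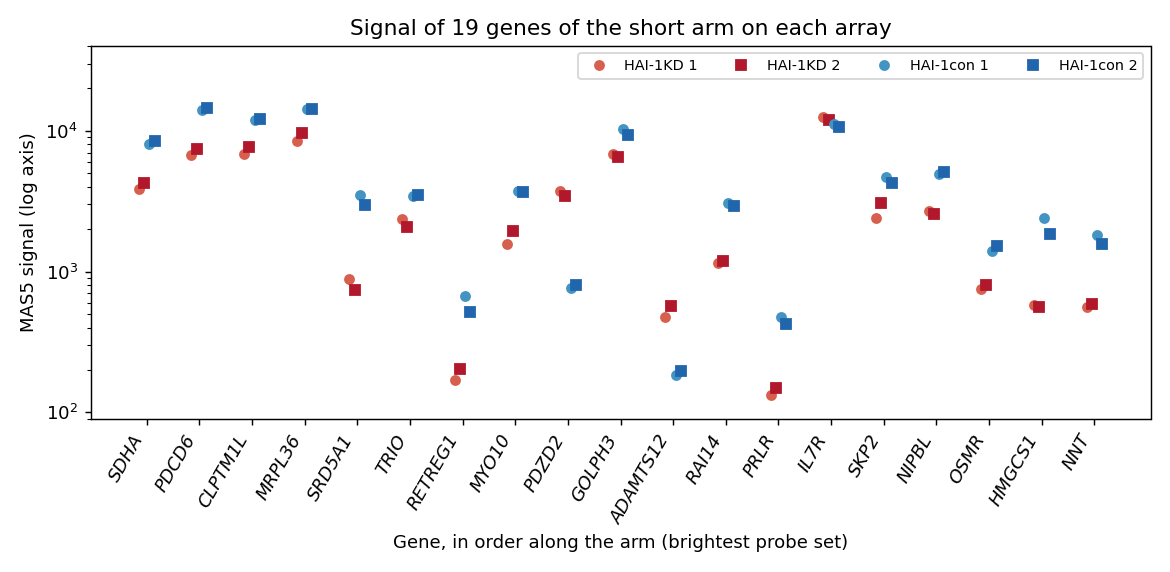
MAS5 signal (vertical axis, log scale) of 19 short-arm genes on each of the 4 arrays (points), in order along the arm from the telomere (horizontal axis), each by its brightest probe set. The knockdown points lie under the control points except for PDZD2, ADAMTS12 and IL7R, where they lie above.

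Some genes within the lowered arm were higher in knockdown cells. PDZD2, which encodes a protein of several PDZ domains, read 3725 and 3411 in knockdown and 762 and 803 in control cells, a log2 difference of 2.17 with an SE of 0.11, and its other probe sets stood at 1.86 and 0.77. It lies between C5orf22, at -0.997, and GOLPH3, at -0.56, both low. ADAMTS12, a secreted metalloprotease gene, read 475 and 571 against 184 and 197 (1.38), with a second, dim probe set at 0.27. ZDHHC11, of the palmitoyltransferase family, was higher on all 3 probe sets, from 0.37 to 1.53, but was not called, and the probe set at the upper end was called present on no array. PDCD6P1, a pseudogene of PDCD6, was called higher at 1.17 on its member probe set, opposite to its parent gene. Another PDCD6P1 probe set, under the signal limit and with 2 alignments, went the other way (-0.89). It read 20.3 and 42.2 in knockdown and 72.7 and 65.7 in control cells and was called present on no knockdown array. The likeness of the sequences of gene and pseudogene leaves the source of these signals uncertain. CAPSL, a calcyphosine-like gene, stood at 0.37, uncalled. PDZD2, ADAMTS12 and PDCD6P1 are the genes called higher.

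Several members carry no gene name, and the lowest of all was one of them. It lies at 2811197, in the same megabase as IRX2, and read 102 and 107 in knockdown and 1636 and 1529 in control cells, a log2 difference of -3.73. Another, at 43415055 within the stretch of the CCL28 probe sets, read 15.995 and 6.82 against 162 and 184. It was called present on no knockdown array, so its signal there is only a bound and no difference is given. Both were picked out after their values were seen. CCL28, an epithelial chemokine gene, was dim throughout. One of its probe sets met the signal limit only through its control arrays, at 112 and 82.9 against 1 and 32.3 in knockdown cells. It too was called present on no knockdown array, so no difference is given. The other CCL28 probe set stood at -1.08.

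Probe sets of the same gene mostly went the same way. Of 49 genes with 2 or more members, 37 had all differences below 0, 4 all above and 8 both signs. Of all members taken singly, 84.9% had a difference below 0. Both knockdown signals were lowest for 73.1% of them and highest for 8.98%. Nothing is therefore read from how far probe sets of a gene went together. The genes all above 0 were ADAMTS12, IL7R, PDZD2 and ZDHHC11. Those of both signs were CMBL, DNAJC21, LIFR, OTULINL, SLC1A3, TARS1, TMEM267 and ZFR, and in 6 of these each probe set whose groups did not overlap was lower in knockdown cells. The exceptions were SLC1A3 and CMBL, whose brighter probe set stood at 0.14 and the other at -0.45.

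Detection followed the signals. Of the members, 206 were called present on all 4 arrays. A present call on each control array and none on the knockdown arrays was found for 7 members (2.86%, against 1.20% of all probe sets tested), probe sets of PDCD6, TRIO, RETREG1, LMBRD2 and CCL28 among them. The reverse held for 2 members (0.816%, against 1.31%), one of them for PDZD2. Just inside the signal limit lay an unnamed probe set at 0.015 and the CCL28 probe set without a present call in knockdown cells. Just outside it lay an unnamed one at 0.27 and one of DNAJC21 at -0.078.

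Neighbouring genes that start back to back were compared, since they share a stretch of promoter. In the RefSeq promoter table (GRCh38.p14), which held 84 of the member genes, 5 pairs of member genes start within 1000 bases of each other on opposite strands and point away from each other. Both knockdown signals were lowest on both sides of all of them. Taken singly and not in pairs, 75% of all short-arm genes had both knockdown signals lowest, against 29.3% of all genes tested. Nothing is therefore read from the pairs about promoters. LMBRD2 was dim and met the signal limit only through its control arrays, at 83.1 and 93.2 against 51.9 and 24.2 in knockdown cells. It was called present on no knockdown array and was not called by limma. DROSHA stood at -0.71 and its partner C5orf22 at -0.997, RAD1, a checkpoint clamp gene, at -0.88 and BRIX1, a ribosome assembly gene, at -0.88. CCDC127 stood at -0.80 beside SDHA at -1.03, BRD9, a bromodomain gene, at -0.42 beside TRIP13 at -0.62, and LMBRD2 at -0.99 beside SKP2 at -0.72. Shown are the windows of DROSHA and of BRIX1, from 250 bases before the start to 50 after it. The DROSHA window shares 293 bases with that of C5orf22, and the BRIX1 window shares 294 with that of RAD1. Capitals mark the motifs CCAAT and GGGCGG on either strand.
DROSHA, chr5:31532044-31532343, minus strand, GRCh38.p14: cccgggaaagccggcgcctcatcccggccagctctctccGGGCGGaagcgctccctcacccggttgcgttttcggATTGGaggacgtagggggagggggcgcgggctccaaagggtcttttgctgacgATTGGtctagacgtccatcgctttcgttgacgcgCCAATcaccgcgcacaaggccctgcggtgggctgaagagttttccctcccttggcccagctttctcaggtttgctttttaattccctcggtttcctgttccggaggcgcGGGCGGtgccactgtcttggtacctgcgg
BRIX1, chr5:34915461-34915760, plus strand, GRCh38.p14: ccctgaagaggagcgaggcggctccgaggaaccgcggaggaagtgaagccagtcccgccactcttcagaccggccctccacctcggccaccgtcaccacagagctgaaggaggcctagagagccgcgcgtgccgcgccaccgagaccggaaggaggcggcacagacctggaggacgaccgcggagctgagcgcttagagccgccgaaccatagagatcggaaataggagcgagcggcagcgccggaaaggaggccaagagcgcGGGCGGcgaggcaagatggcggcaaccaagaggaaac

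The DROSHA window holds CCAAT 3 times and GGGCGG 2 times, both strands counted, and the BRIX1 window holds GGGCGG 1 time and no CCAAT. Over all 35116 promoters of the table, 34.6% hold CCAAT and 44.95% hold GGGCGG, while of the 109 promoters of short-arm member genes 32.1% and 66.1% do. TATAAA was held by 11.5% of all promoters and by 7.34% of those of the members, and CACCCCAC by 2.79% and 0.917%. Member genes had to meet the signal limit, while the promoters of the whole table were not so limited. Shares for tested genes outside the arm were not counted, so these shares are not read as a trait of the arm. No motif contains another. A match only says that the letters occur in the window.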

How the data were processed

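RNA of SAS cells, 2 arrays of HAI-1KD and 2 of HAI-1con, was hybridised to Affymetrix arrays. The authors deposited MAS5 signal intensities with a detection call and a detection p-value for each probe set, per the file headers. They also deposited log2 values less the probe set's own median, which equalled the log2 of the signals so centred within 1e-05 in all 54675 rows. The name MAS5 comes from the submitters' processing notes. The genome build of the deposited alignments is not given in the sources used here, so starts are printed as deposited.

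The 62 control probe sets were left out, and 938 probe sets had no alignment. The difference was log2(signal + 16), knockdown minus control, over probe sets with a mean signal of 55 or more. Calls came from limma 3.58.1 in R 4.3.3 (lmFit and eBayes with a variance trend, Benjamini-Hochberg adjusted p below 0.05 over all 27985 probe sets), tested on simulated data. Tables were made with Python 3.11.15 and pandas 2.3.3. With 2 arrays a group the smallest two-sided p that an exact permutation test allows is 0.333, and none was run. P-values and errors measure the spread between arrays that may be technical repeats.

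A gene was read by its brightest member. Genes were named when among the 4 brightest of a role list or the 6 lowest or highest detected, when at an edge, or when probe sets differed in sign. Head-to-head partners, FTH1, LINC02239, NKD2, AMACR, RPL37, TERT, genes under the limit and the genes of the detection counts were named beside that rule. Members and lists were chosen with earlier results of these data known. Alternatives changed the added amount, filter, scaling, source of values, probe sets used, variance model and replicates. Labels share replicate numbers 1 and 2, but the within-group differences of the 2 numbers correlated at -0.018 across probe sets, so arrays were not paired. Promoters and gene positions are RefSeq's, assembly GRCh38.p14.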

Additional observations from a re-analysis of the deposited data

How the results depend on the processing

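Of the alternative values of the medians, the share and the counts of calls, 76 stayed close to those reported, 18 moved, and none changed sign. For counts, close meant within a ratio of 1.5. So 82 lower calls among members from the deposited log2 values, and 85 with no filter, counted as close to the reported 112. The short-arm median was -0.48 with 64 added in place of 16 and -0.26 with no filter on low values. It ranged from -0.60 to -0.49 when 1 array was left out. The short-arm less the long-arm median was -0.56 and -0.34 in these settings and ranged from -0.68 to -0.58. The share of members below 0 was 68.0% with no filter and 89.5% at a mean signal of 200 or more, and ranged from 80.4% to 85.7%. The long-arm median was 0.066 at that limit and 0.065 after quantile normalization, and ranged from 0.075 to 0.092. Lower calls among members numbered 65 and higher calls 3 with 1 probe set a gene, where fewer were tested. Lower calls numbered 34 without the variance trend, and the cause was not tested. With 1 array left out they ranged from 69 to 115, and higher calls from 4 to 7; the lone array was assumed to vary like the other group. With the replicate number as a block, 115 members were called lower and 6 higher. Over all probe sets the calls were 4240 as reported, 2211 with no filter, 1273 without the trend, 2796 from the deposited log2 values, and 2123 and 2367 without control arrays 1 and 2. Among the named genes, SLC12A7, SLC6A3 and PTGER4 took both signs when 1 array was left out, from -0.44 to 0.46, from -0.72 to 0.11 and from -0.028 to 0.23. Of the uncalled genes, BASP1 ranged from -0.50 to -0.14, C1QTNF3 from -0.88 to -0.37 and CAPSL from 0.20 to 0.55. The restriction to probe sets with 1 alignment was chosen after seeing the data. With 2 arrays a group and signals near background for many probe sets, small differences of dim members could not be resolved.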
